A study of Mus musculus with 8 samples.

Results

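Imprinted genes outside the Igf2-H19, Kcnq1 and Dlk1-Meg3 domains were followed in mouse liver with and without Cre directed at floxed Ctcf, together with their closest neighbours. The set held 38 genes in 15 domains, taken by symbol from the 52636 genes listed, and was drawn up with earlier results of these data known. Whole liver of C57BL/6 mice aged 8 weeks was profiled by RNA sequencing in 8 libraries. All carried loxP-flanked Ctcf alleles (CTCF fl/fl). In 4 libraries the mice had no Cre recombinase (CTCF fl/fl Albcre-, called WT), and in 4 they had Cre driven by the promoter of albumin, a hepatocyte gene (CTCF fl/fl Albcre+, called cKO). No group carried Cre without floxed Ctcf, so Cre and the change in Ctcf cannot be told apart, and cells that do not use the albumin promoter keep the gene. The labels give replicate numbers but do not say that each library came from a separate animal, so p-values measure the spread between these libraries.

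An imprinted gene is transcribed mainly from the copy inherited from the mother or from the father. The choice is set by DNA methylation that differs between egg and sperm at an imprinting control region, and it is read out locally by long noncoding RNAs, by competing promoters or by insulators. CTCF, which holds chromatin loops together at its DNA sites, binds several control regions only when they are unmethylated, which is why imprinted genes are commonly examined after its loss. Most imprinted genes are strongly used in the fetus and placenta and fall in the liver after birth. RNA totals do not show which parental copy was read, and allele-specific reads were not analysed here.

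For 2 domains the arrangement of start sites bears on how the counts are read, so the stretches in front of the genes are shown first, from RefSeq on GRCm38.p6 (mm10) and with every CG, the dinucleotide that carries DNA methylation, in capitals. Peg3 and Usp29 are read in opposite directions from start sites separated by the 96 bases at chr7:6730463-6730558, shown on the plus strand. Airn starts inside the Igf2r gene and is read against it, so both starts are given on the strand of their gene: Igf2r from chr17:12769707-12769956 (minus strand) and Airn from chr17:12741061-12741310 (plus strand). The stretch before Plagl1, the member with the largest rise, is at chr10:13090582-13090831 (plus strand).
Peg3-Usp29 interval: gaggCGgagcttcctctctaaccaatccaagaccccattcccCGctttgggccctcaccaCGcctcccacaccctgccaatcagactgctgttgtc
Igf2r upstream: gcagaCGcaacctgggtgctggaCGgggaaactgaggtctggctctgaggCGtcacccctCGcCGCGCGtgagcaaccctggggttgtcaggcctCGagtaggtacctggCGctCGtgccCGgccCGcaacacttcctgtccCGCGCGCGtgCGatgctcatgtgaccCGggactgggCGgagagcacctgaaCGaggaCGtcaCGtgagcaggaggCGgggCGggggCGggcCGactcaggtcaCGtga
Airn upstream: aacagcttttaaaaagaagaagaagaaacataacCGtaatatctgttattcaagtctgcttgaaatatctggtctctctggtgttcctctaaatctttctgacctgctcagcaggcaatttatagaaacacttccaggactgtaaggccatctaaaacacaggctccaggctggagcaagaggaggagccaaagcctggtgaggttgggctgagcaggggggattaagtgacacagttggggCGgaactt
Plagl1 upstream: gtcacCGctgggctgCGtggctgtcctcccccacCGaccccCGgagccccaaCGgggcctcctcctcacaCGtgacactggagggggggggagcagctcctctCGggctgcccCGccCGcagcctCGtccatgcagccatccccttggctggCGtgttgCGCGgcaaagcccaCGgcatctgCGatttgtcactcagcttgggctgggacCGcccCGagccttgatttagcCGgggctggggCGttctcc

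The 250 bases before Igf2r held 27 CG and those before Plagl1 19, against 2 before Airn. Each stretch ends at the start, so CG past the start is not in these numbers. Promoter windows of 300 bases (250 before to 50 after a start) were used for 30 of the 38 genes. For members no window on chromosome 18, where Impact lies, was used. The median number of CG in a gene's richest window was 17 for the 30 genes and 8 over all 27025 genes with a window. These are descriptions of letters in short windows, and methylation itself was not analysed here. The members and all genes were not matched by gene type or by number of windows per gene.

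Library totals ran from 43.9 M to 57.3 M assigned counts (WT mean 46.1 M with an SD of 2.93 M, cKO mean 52.4 M with an SD of 3.29 M; p = 0.0571 by an exact permutation test, two-sided, which cannot go below 0.0286 here). Ctcf, the targeted gene, ranged over 16.0 to 16.9 CPM among WT libraries and 10.9 to 13.1 CPM among cKO libraries (log2 change -0.44, SE 0.08, edgeR adjusted p = 0.00177), and in limma on log2(TPM + 1) its fall did not pass (adjusted p = 0.147). The transcript was thus lowered and not absent in cKO. CPM are the usual depth-scaled counts, here scaled to library totals times TMM factors. The libraries are liver by their markers, with Alb at means of 59620 and 65920 CPM in WT and cKO. Of 20 markers of stellate cells and fibroblasts 18 were higher in cKO by the edgeR test, Fbln1 and Ngfr did not pass, none was at 0, and their summed level was 380 to 429 CPM in WT against 667 to 847 CPM in cKO. Ecm1 (126.5 and 194 CPM in WT and cKO) and Dcn (65.3 and 194 CPM) had the highest means over both genotypes. Summed markers of hepatocytes, sinusoidal endothelium, Kupffer cells and macrophages, lymphocytes, cholangiocytes, mesothelium and nerve overlapped between genotypes, although single markers moved. Of 12 hepatocyte markers 5 were lower and 1, Cps1, higher, 5 of 10 lymphocyte markers and 4 of 14 Kupffer cell and macrophage markers were higher, and of 6 tested cholangiocyte markers Cldn7, Epcam and Krt7 were higher while Spp1, the most abundant, was lower (34.9 to 21.8 CPM). Over all 15562 tested genes edgeR called 15.2% higher and 14.9% lower. The part of any of these cells in the results was not tested. More cells of a type and more RNA per cell cannot be told apart in whole liver.

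Levels of the 38 genes ran from 0 counts in all libraries to a WT mean of 377 TPM. Compared per length, in TPM (transcripts scaled to a fixed total and divided by length), the amino acid transporter gene Slc38a4 was highest in WT at 377 ± 27.6 TPM (mean ± SD, n = 4), followed by Gnas, which encodes the stimulatory G protein alpha subunit, at 365 ± 36.5 TPM. The ranges of these genes overlapped in WT (339 to 401 TPM for Slc38a4 and 339 to 418 TPM for Gnas). The signal peptide peptidase gene H13 at 71.9 ± 3.65 TPM and Commd1, a copper homeostasis factor, at 71.4 ± 2.24 TPM did not differ beyond their spread either. Ddc, the aromatic amino acid decarboxylase, followed at 26.7 ± 3.42 TPM and Blcap at 13.1 ± 0.80 TPM, and the other 32 genes had means under 10 TPM in WT.

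At the low end 8 members were at or close to 0. Klf14, a Kruppel-like factor, Magel2, of the Prader-Willi region, and the potassium channel gene Kcnk9 had 0 counts in all 8 libraries. That allows up to 0.0524 to 0.0683 CPM per library, here scaled to library totals without TMM factors (counting error only). Usp29 had 1 count in all libraries together, the cation transporter gene Slc22a2 5.01, Nap1l5 39, the zinc finger gene Zim1 47 and Nnat 75. These 8 genes did not pass the low-count filter and were not tested. Among the 30 that passed, 5 had a mean below 1 CPM: Peg10, a gene derived from a retrotransposon, Mest, Plagl1, and the Prader-Willi region genes Ndn and Mkrn3.

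**Figure D1:**
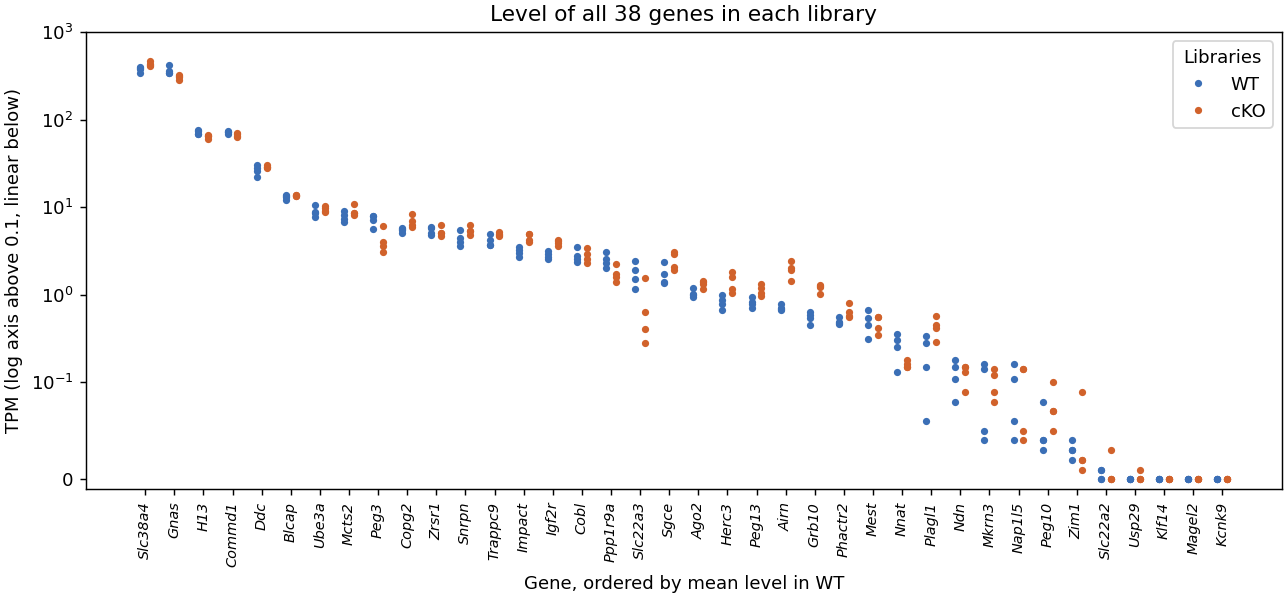
Level in TPM of each of the 38 genes in each library (points; blue WT, orange cKO), on an axis that is logarithmic above 0.1 and linear below, ordered by the WT mean. Slc38a4 and Gnas stand at or above 285 TPM in every library, and 5 genes on the right have no count or 5.01 counts or fewer in all libraries together.

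In cKO 7 of the 30 tested members were higher and 5 lower (edgeR, adjusted p under 0.05 over all 15562 genes tested). That is 23.3% and 16.7% of them, where the shares over all tested genes were 15.2% higher and 14.9% lower (30.1% in either direction). Every cKO library lay above every WT library for 6 members and below for 4, against 15.0% and 15.6% of all tested genes (30.6% in either direction). The median log2 change was 0.07, with -0.01 over all genes, and the changes ran from -1.46 to 1.64. The members that passed were Plagl1, Airn, Grb10, Phactr2, Herc3, Impact and Igf2r upward and Peg3, Ppp1r9a, Gnas, H13 and Commd1 downward. By parental origin known from elsewhere, 3 of 14 tested paternally read members were higher (Airn, Plagl1 and Impact) and 1 lower (Peg3). Among the 16 others, which mix maternally read genes with neighbours, 4 were higher and 4 lower. The called shares were 28.6% and 50%, against 30.1% of all tested genes, and the difference between them was not tested.

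**Figure D2:**
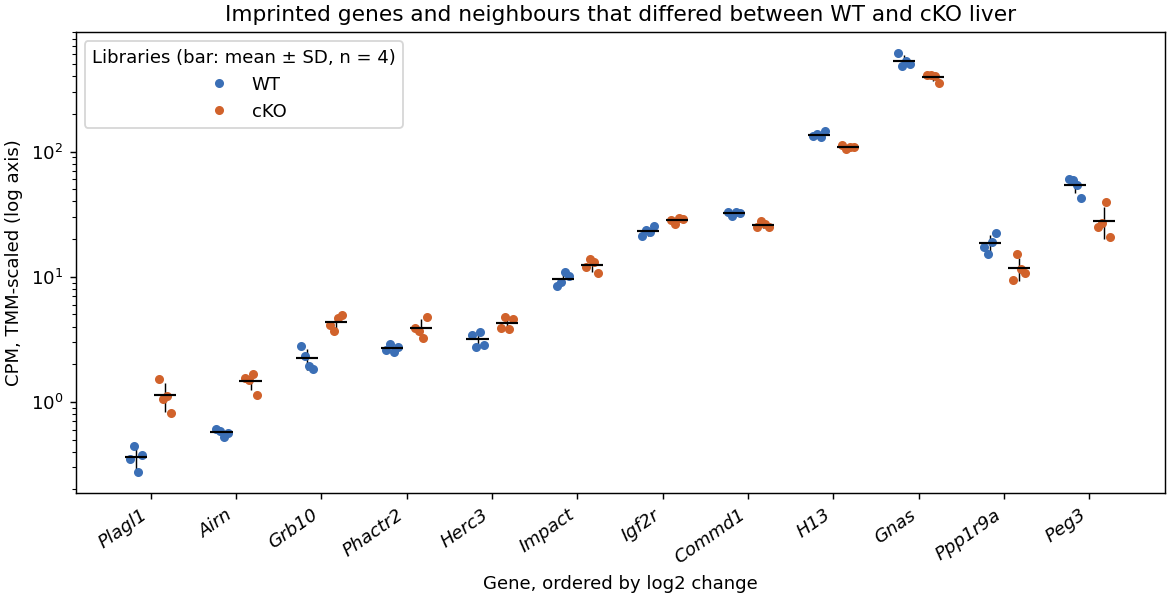
CPM of the 12 members that passed the test in each library (points; blue WT, orange cKO; black bars mean ± SD, n = 4 each), on a log axis and ordered by log2 change. The genotypes are apart for all but Impact and Ppp1r9a, whose WT and cKO points overlap.

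Among noncoding RNAs of the set the one that passed was Airn, the long RNA that is read from the paternal copy and silences Igf2r in cis in most tissues (chromosome 17, 12741311 to 12859884). It stood at 0.612, 0.590, 0.527 and 0.562 CPM in WT replicates 1 to 4 and at 1.55, 1.496, 1.66 and 1.14 CPM in cKO replicates 1 to 4. All cKO libraries were above all WT libraries (log2 change 1.35, SE 0.19, edgeR adjusted p = 0.000637). Igf2r, which encodes the receptor that clears IGF2 and carries lysosomal enzymes (chromosome 17, 12682406 to 12769706), also rose, from 21.1, 23.45, 22.8 and 25.5 CPM in WT to 28.6, 26.5, 29.4 and 29.2 CPM in cKO. That rise was smaller and again without overlap (log2 change 0.29, SE 0.07, edgeR adjusted p = 0.0112). Both calls held under all 21 alternatives at the 0.05 threshold.

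The log2 ratio of Airn to Igf2r in TPM was -2.26 to -1.79 in WT and -1.52 to -0.82 in cKO, so it was higher in each cKO library than in any WT library. The genes share 28396 bases on opposite strands, and whether the counting used strand is not given in the sources used here, so reads of one can have been assigned to the other. Airn rested on 23 to 90 counts per library and Igf2r on 994 to 1716. Further along the domain Slc22a3, an organic cation transporter gene that is maternally read in placenta, had 6.12, 3.63, 4.88 and 7.70 CPM in WT and 1.17, 1.84, 0.776 and 4.28 CPM in cKO. One cKO library, replicate 4, lay within the WT range, and the difference of -1.46 on the log2 scale did not pass (SE 0.53, edgeR adjusted p = 0.0751). Without that library it was -2.15 with an adjusted p of 0.00402, and over the 22 alternatives the adjusted p ran from 0.00402 to 0.164, with 7 of them past the threshold.

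Peg3, a paternally read zinc finger gene with roles in growth and maternal behaviour (chromosome 7, 6703892 to 6730462), had the largest fall that passed. Its libraries stood at 60.4, 59.1, 54.6 and 43.0 CPM in WT and at 25.1, 27.0, 39.7 and 20.6 CPM in cKO. No cKO library reached a WT library in CPM, and 51.8% of the WT level remained (log2 change -0.95, SE 0.20, edgeR adjusted p = 0.00981). In TPM, which carries no TMM factor, cKO replicate 3 (6.07) was above WT replicate 4 (5.64). From the other side of the 96 base interval shown above, the single count of Usp29 came from cKO replicate 3. Zim1, the maternally read neighbour, had 2 to 8 counts per library.

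Of the Peg10-Sgce domain on chromosome 6, the gene farthest from the shared start region moved. Ppp1r9a, which encodes the actin-binding scaffold neurabin (chromosome 6, 4902872 to 5165661), had 17.4, 15.2, 19.1 and 22.3 CPM in WT and 9.51, 15.2, 11.5 and 10.7 CPM in cKO. Its cKO replicate 2 touched the WT range and the other 3 were below it (log2 change -0.66, SE 0.15, edgeR adjusted p = 0.0107). Limma on log2 TPM, with pseudocounts of 1 and 0.1, ended the call (adjusted p = 0.0535 and 0.0526). Peg10 and the sarcoglycan gene Sgce, whose gene intervals are 101 bases apart and point away from each other, did not pass. Peg10 had 9 to 30 counts per library (log2 change 0.39, edgeR adjusted p = 0.40), and Sgce 2.36 ± 0.595 CPM in WT and 3.07 ± 0.749 CPM in cKO (log2 change 0.37, edgeR adjusted p = 0.205). Their log2 TPM ratio was 4.08 to 5.90 in WT and 4.87 to 5.46 in cKO, and so overlapped.

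Plagl1, a paternally read zinc finger regulator that restrains cell growth and acts on other imprinted genes (chromosome 10, 13090832 to 13131694), had the largest rise. It is below the 1 CPM set for naming, and its values by library were singled out after they were seen. They were 0.347, 0.448, 0.275 and 0.374 CPM in WT and 1.53, 1.05, 1.11 and 0.818 CPM in cKO, from 12 to 80 counts per library. The lowest cKO library was above the highest WT library (log2 change 1.64, SE 0.26, edgeR adjusted p = 0.00114). RSEM placed these few reads on different transcripts, with mean lengths of 1239 to 5260 bases among WT libraries, and with an offset for effective length the log2 change was 1.102 and the adjusted p 0.0955. In TPM the genotypes overlapped (WT replicate 1 at 0.34 and cKO replicate 4 at 0.29), and limma on log2(TPM + 0.1) also ended the call (0.87, adjusted p = 0.0558).

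Its neighbour Phactr2, a regulator of phosphatase 1 and actin (chromosome 10, 13207717 to 13474525), rose as well. The values were 2.59, 2.88, 2.498 and 2.76 CPM in WT and 3.88, 3.72, 3.27 and 4.80 CPM in cKO, without overlap (log2 change 0.55, SE 0.14, edgeR adjusted p = 0.0132). The offset for effective length ended this call (log2 change 0.22, adjusted p = 0.314), as did limma on log2(TPM + 1) and log2(TPM + 0.1) (0.13 and 0.31, adjusted p = 0.128 and 0.156).

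Grb10, an adaptor that dampens insulin and growth factor receptors and is maternally read outside the brain (chromosome 11, 11930499 to 12037428), rose. It had 2.79, 2.33, 1.93 and 1.85 CPM in WT and 4.13, 3.66, 4.69 and 4.94 CPM in cKO. The groups were well apart (log2 change 0.97, SE 0.16, edgeR adjusted p = 0.00151), and the call held under all 21 alternatives at the 0.05 threshold. Its neighbours on either side did not pass: Ddc had 33.5 ± 4.50 and 33.7 ± 1.08 CPM (log2 change 0.01, edgeR adjusted p = 0.932), and the actin nucleator gene Cobl 8.38 ± 1.87 and 8.12 ± 1.26 CPM (log2 change -0.04, edgeR adjusted p = 0.858). Plagl1, Airn and Grb10 rose between the same groups as the summed stellate cell and fibroblast markers given above. So did 15.2% of all tested genes by edgeR, and a link was not tested.

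Several of the most abundant members fell slightly. Gnas (chromosome 2, 174284320 to 174346744) had 612, 488, 535 and 498 CPM in WT and 410, 411, 403 and 356 CPM in cKO. Each cKO library was below each WT library (log2 change -0.43, SE 0.09, edgeR adjusted p = 0.00423), and the call held under all 21 alternatives at the 0.05 threshold. The locus also makes the imprinted Nesp and XL alpha s transcripts from other first exons, and counts per gene do not separate them. The mean transcript length that RSEM assigned to Gnas was 1705 to 1709 bases in WT and 1699 to 1706 bases in cKO.

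H13 (chromosome 2, 152669422 to 152708668) had 133, 138, 131 and 145 CPM in WT and 114, 105, 109 and 108 CPM in cKO. The genotypes were apart (log2 change -0.33, SE 0.07, edgeR adjusted p = 0.00376). Mcts2, a retrotransposed translation factor gene that lies inside H13 and is read from the paternal copy, had 6.41, 5.64, 5.22 and 4.71 CPM in WT and 5.13, 5.56, 6.52 and 5.16 CPM in cKO. The genotypes overlapped, with a log2 change of 0.02 that did not pass (edgeR adjusted p = 0.902). The H13 to Mcts2 log2 TPM ratio was 2.93 to 3.50 in WT and 2.63 to 2.99 in cKO, with 2 cKO libraries within the WT range.

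Commd1 (chromosome 11, 22899728 to 22984539) had 33.2, 30.6, 32.9 and 32.1 CPM in WT and 25.0, 28.1, 26.4 and 24.9 CPM in cKO, without overlap (log2 change -0.30, SE 0.06, edgeR adjusted p = 0.00525). Zrsr1, a splicing factor retrogene inside an intron of Commd1 and read from the paternal copy, had 17.4, 17.1, 15.3 and 14.3 CPM in WT and 13.4, 16.8, 12.8 and 11.9 CPM in cKO. It overlapped through cKO replicate 2, and its log2 change of -0.22 did not pass (edgeR adjusted p = 0.143). Without that library its log2 change was -0.32 with an adjusted p of 0.0302. The calls of H13 and Commd1 held with library size alone (adjusted p = 0.0261 and 0.0381). They ended with limma on log2(TPM + 1), which gave log2 changes of -0.15 and -0.10 (adjusted p = 0.0973 and 0.216) and moved the median gene up by 0.15.

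**Figure D3:**
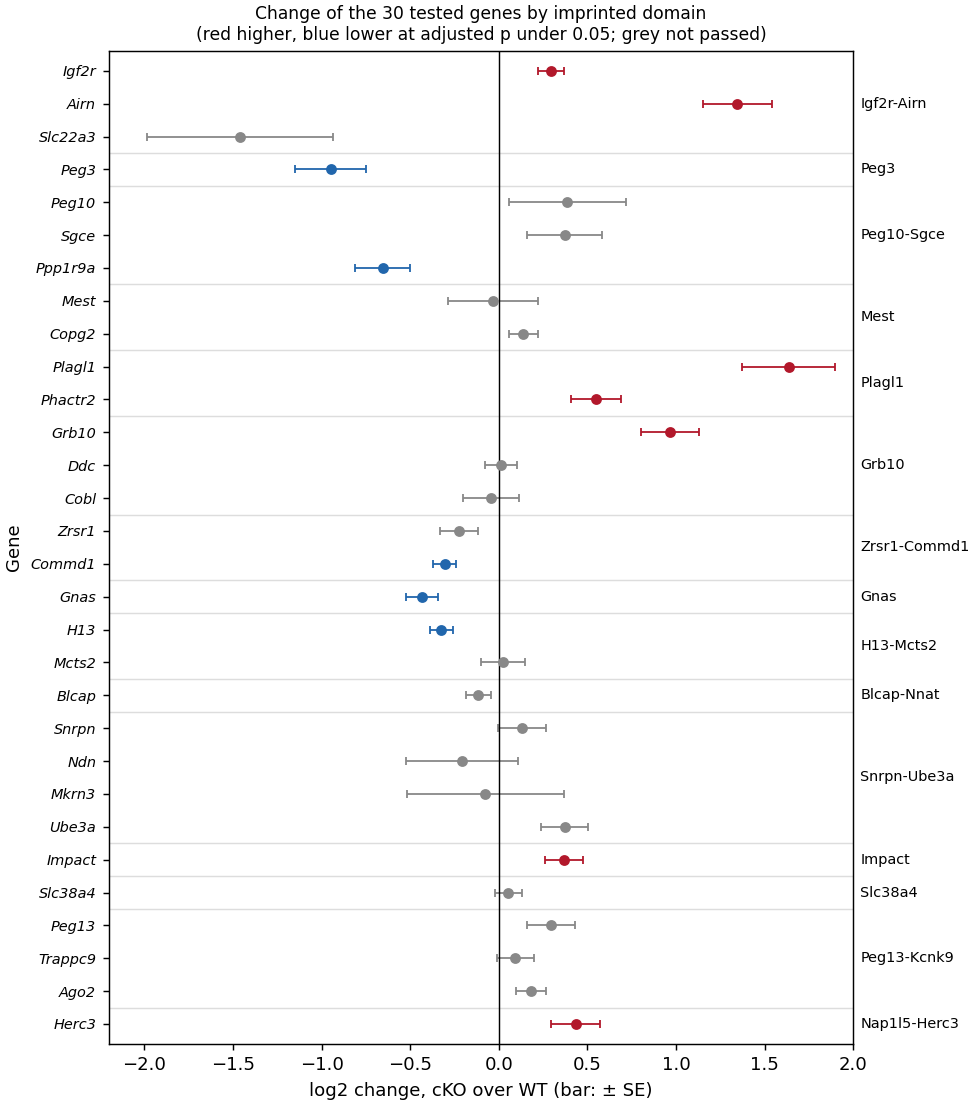
Log2 change of cKO over WT for the 30 tested genes (points, with bars of ± SE), grouped by domain in labels at the right; red marks genes higher and blue genes lower at an edgeR adjusted p under 0.05, and grey those that did not pass. Within the Igf2r-Airn and Plagl1 domains 2 members rose, while in the Grb10, Zrsr1-Commd1 and H13-Mcts2 domains 1 member passed and the others did not.

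Impact, a paternally read inhibitor of the stress kinase GCN2 (on chromosome 18), had 8.51, 9.08, 10.9 and 10.1 CPM in WT and 11.96, 13.96, 13.2 and 10.7 CPM in cKO. Replicate 4 of cKO lay within the WT range (log2 change 0.37, SE 0.11, edgeR adjusted p = 0.0241). The call was lost without WT replicate 1 or 2 or cKO replicate 2 or 3 (adjusted p 0.0579 to 0.0671). Herc3, a ubiquitin ligase gene that holds the paternally read retrogene Nap1l5 (chromosome 6, 58831455 to 58920398), had 3.45, 2.74, 3.62 and 2.86 CPM in WT and 3.90, 4.81, 3.84 and 4.57 CPM in cKO. The lowest cKO library was just above the highest WT library (log2 change 0.43, SE 0.14, edgeR adjusted p = 0.0331), and the call was lost without WT replicate 2 or 4 or cKO replicate 2 or 4 (adjusted p 0.0635 to 0.0911). Nap1l5 itself had 3 to 10 counts per library, which is 0.109 ± 0.055 and 0.092 ± 0.062 CPM in the genotypes.

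In the Snrpn-Ube3a domain, which is the Prader-Willi and Angelman region, none of the 4 tested genes passed with edgeR, and 1, Ube3a, had an unadjusted p under 0.05. Snrpn, a spliceosome protein gene, had 7.37 ± 1.43 and 8.07 ± 0.78 CPM (log2 change 0.13, edgeR adjusted p = 0.484). Ndn, a growth suppressor gene, and Mkrn3, a ubiquitin ligase gene that restrains puberty, stood at or below 0.619 CPM in every library, with edgeR adjusted p values of 0.652 and 0.915. Ube3a, a ubiquitin ligase gene that is imprinted in neurons (chromosome 7, 59228750 to 59310837), had 12.7, 16.6, 15.7 and 21.2 CPM in WT and 20.3, 22.7, 20.02 and 22.5 CPM in cKO. Only WT replicate 4 was within the cKO range (log2 change 0.37, SE 0.13, edgeR adjusted p = 0.0516), and without it the log2 change was 0.51 with an adjusted p of 0.00303. Of the 22 alternatives 10 were past the threshold with the same direction, and the offset for effective length turned it to -0.08 (adjusted p = 0.572).

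Mean transcript length, which RSEM weights by the estimated share of each isoform, was also compared. It comes from the same assignment of reads as the counts and as the effective length of the offset, so these are not separate measurements. For Ube3a it was 1903, 2238, 2030 and 2297 bases in WT and 2864, 3094, 2681 and 2864 bases in cKO. All cKO libraries had longer estimates than all WT libraries (log2 change 0.44, SE 0.07), yet the limma adjusted p over 9942 genes was 0.112. The same was seen for Phactr2, with 5928 ± 616 bases in WT and 7455 ± 170 bases in cKO (log2 change 0.34, limma adjusted p = 0.162). Cobl, whose counts did not pass, had 3298 ± 164 and 3636 ± 40.5 bases (log2 change 0.14, limma adjusted p = 0.18). These were the 3 of 18 members with a length test whose genotypes did not overlap, against 10.0% of all genes tested for length. With limma 0 of the 9942 genes (0%) passed, 1475 had an unadjusted p under 0.05, and limma without trend or robust weighting also called 0 (1525 at an unadjusted p under 0.05). Leaving out WT replicate 4 gave 15 genes and leaving out cKO replicate 4 gave 1.

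**Figure D4:**
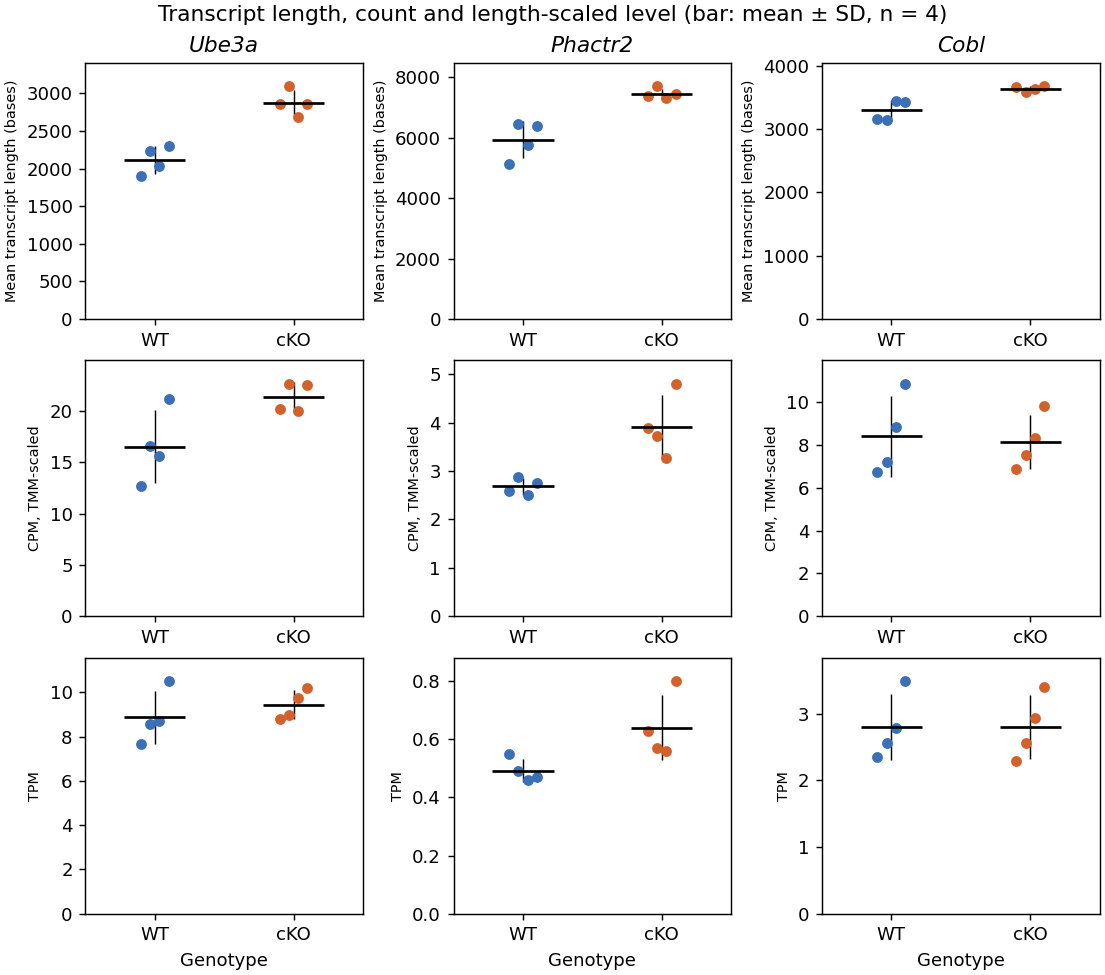
Mean transcript length in bases (top), CPM (middle) and TPM (bottom) of Ube3a, Phactr2 and Cobl in each library (points; blue WT, orange cKO; black bars mean ± SD, n = 4 each), on axes that start at 0. The lengths are longer in all cKO libraries for the 3 genes, while TPM overlaps between genotypes for Ube3a and Cobl.

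In the remaining domains the members did not pass. Slc38a4, the most abundant member, averaged 857 ± 58.0 and 890 ± 48.8 CPM without and with Cre (log2 change 0.05, SE 0.08, edgeR adjusted p = 0.629), and in TPM, where the median gene lies higher in cKO, 377 ± 27.6 and 434 ± 23.7 without overlap. Mest, a hydrolase-like gene strongly read in the fetus, had 0.756 ± 0.169 and 0.741 ± 0.199 CPM (edgeR adjusted p = 0.937), and Copg2, a coat protein gene that overlaps its end by 913 bases, 18.6 ± 0.75 and 20.5 ± 2.11 CPM (edgeR adjusted p = 0.219). On chromosome 15 the noncoding RNA Peg13, which lies inside the trafficking complex gene Trappc9, had 3.50 ± 0.40 and 4.30 ± 0.55 CPM (edgeR adjusted p = 0.119), Trappc9 12.7 ± 1.94 and 13.6 ± 0.69 CPM (0.518), and the Argonaute gene Ago2 13.4 ± 1.31 and 15.2 ± 1.04 CPM (0.135). Blcap had 22.6 ± 1.49 and 20.9 ± 0.81 CPM (edgeR adjusted p = 0.23), and Nnat, the neuronal gene inside it that is read from the paternal copy, had 5 to 15 counts per library. Library size alone as the scale put Copg2, Peg13 and Ago2 past the threshold (adjusted p 0.0362, 0.0418 and 0.0248). Peg13 also passed with limma on log2(TPM + 1) and log2(TPM + 0.1) (0.0448 and 0.0492), and Ago2 without the 20 most abundant genes in the library size (0.0298) and without WT replicate 4 (0.033).

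Ratios within pairs of a domain were described in TPM, without a test; the genes of a pair overlap, lie one inside the other or start side by side, except Ube3a and Snrpn, which lie apart. Of 9 pairs with counts in all libraries, Airn to Igf2r was the pair whose genotypes did not overlap. It rests on the same reads as the rise of Airn given above. The share over other gene pairs was not computed, and of all tested single genes 30.6% did not overlap in CPM. The pairs that overlapped included Commd1 to Zrsr1 (3.55 to 3.89 in WT and 3.48 to 3.81 in cKO), Trappc9 to Peg13 (1.98 to 2.67 and 1.99 to 2.35), Copg2 to Mest (3.10 to 4.22 and 3.52 to 4.33) and Ube3a to Snrpn (0.66 to 1.38 and 0.70 to 0.87), as log2 ratios. Blcap to Nnat (5.23 to 6.74 in WT and 6.20 to 6.52 in cKO) and Herc3 to Nap1l5 (2.29 to 4.43 and 2.89 to 5.52) overlapped too, on few counts of Nnat and Nap1l5.

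**Figure D5:**
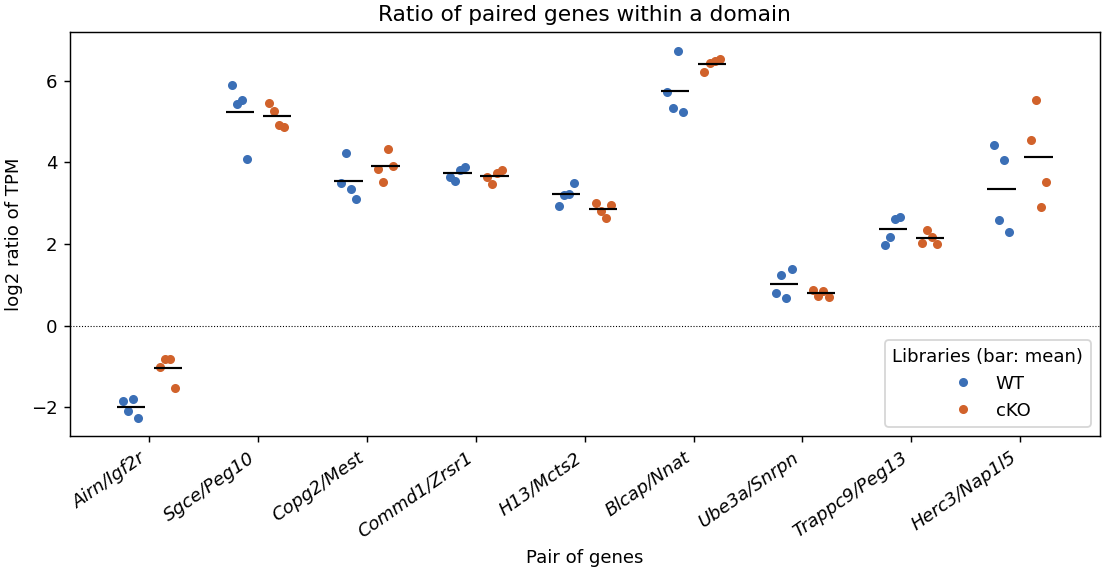
Log2 ratio of TPM for 9 pairs of genes of a domain in each library (points; blue WT, orange cKO; black bar mean of 4). The Airn to Igf2r ratio is higher in every cKO library (-1.52 to -0.82) than in any WT library (-2.26 to -1.79), and the other 8 pairs overlap.

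Of 71 tested genes that flank these domains 11 were higher and 7 lower (25.4%, against 30.1% of all genes). Tfpi2, which did not pass, is counted here and among the imprinted genes elsewhere. Tspan33, a tetraspanin gene near Mest, fell from 12.2 ± 1.26 to 5.28 ± 0.60 CPM (log2 change -1.20, edgeR adjusted p = 3.8e-05), and Ppm1k, a phosphatase gene of branched-chain amino acid breakdown near Herc3, from 79.4 ± 5.53 to 55.9 ± 8.08 CPM. The nuclear export receptor gene Xpo1, beside Commd1, rose by 0.63 on the log2 scale, and Src, the tyrosine kinase gene near Blcap, by 1.05. Col1a2, near Sgce and itself a fibroblast marker, had a log2 change of 1.28. Pced1b, Pkd2 and Atp5e had -0.76, 0.44 and -0.34.

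Genes of proteins that maintain imprints in the early embryo did not pass. Of 14 tested, edgeR called 0, as did DESeq2 and limma-voom, each with 3 at an unadjusted p under 0.05. Over all tested genes edgeR called 30.1%, DESeq2 32.2% and limma-voom 30.2%, and the difference was not tested. In edgeR the 3 with an unadjusted p under 0.05, named after their values were seen, were the chromatin remodeller gene Hells (log2 change -0.59), the chromatin protein gene Smchd1 (0.24) and the zinc finger gene Zfp445 (-0.34). Of the 14 genes 2, Hells and Smchd1, did not overlap between genotypes in CPM, against 30.6% of all tested genes. Of 13 tested genes of the Igf2-H19, Kcnq1 and Dlk1-Meg3 domains 5 were higher and 1 lower (46.2%). Of the members here 40% were called, and of all tested genes 30.1% (15.2% higher and 14.9% lower). The differences between these shares were not tested. Meg3 and Rian, noncoding RNAs of the Dlk1-Meg3 domain, had log2 changes of 1.36 and 2.051, the cell cycle inhibitor gene Cdkn1c 0.53 and Tssc4 -0.29. Mirg and Phlda2, both under 1 CPM on average, were the other two that rose. Among 8 tested imprinted genes elsewhere in the genome Dcn, also a fibroblast marker, was the 1 that passed (log2 change 1.57). That is 12.5%, against 30.1% of all tested genes.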

How the data were processed

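RNA of whole liver was sequenced after Trizol extraction and TruSeq RNA library preparation, per the labels' protocols. The submitters' processing notes name STAR 2.5.1, RSEM and mm10. Which annotation was used, and whether counting was stranded, is not given in the sources used here. Per the file headers, the authors deposited estimated counts per gene (RSEM's expected counts), in which reads that fit several genes are divided, TPM, which have an equal sum in all libraries, and mean transcript lengths weighted by isoform share. Expected counts were rounded. Genes were kept with edgeR's filterByExpr (minimum count 10, minimum total 15; 15562 of 52636), scaled with TMM and compared with edgeR 4.0.16 (R 4.3.3: estimateDisp, robust glmQLFit, glmQLFTest, Benjamini-Hochberg at 0.05). Log2 lengths were compared with limma 3.58.1 for genes at a mean of 1 CPM or more whose length varied. The scripts were tested on simulated data. The lowest chi-square per degree of freedom between libraries of a genotype was 28.4, so none was a duplicate.

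Members and lists were chosen with earlier results of these data known, and 3 of the listed flanking symbols were not in the files. Values by library are given for members past the threshold at a mean of 1 CPM or more and for their pair, and for Plagl1. From lists other than markers genes were taken by smallest p. Marker genes were taken by highest mean, and further ones were named where markers moved or did not pass. Alternatives were RLE and upper quartile factors, library size alone or without the 20 most abundant genes, no filter, 1 CPM in 4 libraries, DESeq2 1.42.0, limma-voom, no robust fit, log2(TPM + 1), log2(TPM + 0.1), the replicate number as a block, an effective length offset, adjusted p under 0.01, and leaving out each library; for lengths, effective length and a mean of 5 CPM. Positions and promoters are RefSeq's for GRCm38.p6, matched by symbol. Figures used matplotlib 3.10.9.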

Additional observations from a re-analysis of the deposited data

Results flagged for a closer look

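In cKO the level of Gnas in replicate 4 was 356 CPM, apart from 403 to 411 CPM in the other 3 libraries. Of 86 groups of 4 libraries checked this was the 1 that stood out, where chance gives about 1 in 20 groups. Without that library the fall of Gnas passed the test as before (edgeR adjusted p between 0.00375 and 0.0138 over the 8 fits that leave out a library).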

How the results depend on the processing

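Of 677 values of single genes under alternatives, 591 kept their direction and side of the threshold, 27 lost and 26 gained a call, and 33 changed sign. All 12 called members kept their direction, and Igf2r, Airn, Peg3, Grb10 and Gnas kept their call under all 21 alternatives at 0.05. Library size alone gave 3603 genes higher, 1318 lower and 11 members higher, and omitting the 20 most abundant genes from it 1421 lower (73.2% and 69.2% of calls higher, 50.5% with TMM). Limma on log2(TPM + 1) gave 3880 higher, 878 lower and 3 members lower, with Ctcf at -0.15 (adjusted p = 0.147), and on log2(TPM + 0.1) 3868, 876 and 3, with Ctcf at -0.18 (0.15). The median gene moved by 0.11 with library size alone and by 0.15 and 0.17 in TPM; the cause of the lost calls was not tested. At an adjusted p under 0.01 there were 1165 higher, 1050 lower and 3 members higher. Signs that changed were all of values past no threshold: with library size alone Mest 0.068, Cobl 0.063 and Mkrn3 0.029; without the 20 most abundant genes Mest 0.037 and Cobl 0.038; with limma-voom Mkrn3 0.094; with log2(TPM + 1) Cobl 0.0011, Blcap 0.044, Ndn 0.00048 and Mkrn3 0.014; with log2(TPM + 0.1) Cobl 0.0014, Blcap 0.047, Ndn 0.011 and Mkrn3 0.12; with the effective length offset Ddc -0.046 and Ube3a -0.082. Leaving out each library gave ranges of -0.19 to 0.13 for Mest, -0.064 to 0.078 for Ddc, -0.15 to 0.10 for Cobl, -0.045 to 0.107 for Mcts2, -0.39 to 0.0046 for Ndn and -0.32 to 0.24 for Mkrn3, and 0 to 15 genes of different length.

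The replicate block gave 2525 genes higher and 2419 lower, and 7 members in each direction; it ended the call of Herc3 (0.0588), brought those of Slc22a3 (0.0261), Zrsr1 (0.0459) and Ube3a (0.014), and turned Mkrn3 to 0.018. Libraries of the same number correlated by 0.0417 to 0.0567 in their deviations from the genotype means. Replicates 1 and 3 correlated best with their own number and replicates 2 and 4 did not. A pairing by number was thus neither shown nor excluded. Of the tested members Mkrn3 had 4 to 16, Peg10 9 to 30 and Ndn 13 to 27 counts per library, and how small a change these could show was not tested.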
